A study of Homo sapiens with 10 samples.

Results

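EWS occupancy was compared between RWPE1 cells that carried wild-type ERG and RWPE1 cells that carried the point mutant P436A. The regions were all peaks of the 2 ChIP-seq lists made with the anti-EWS antibody (clone G5) in this line, 5703 with wild-type ERG and 1786 with P436A, 7489 of the 30301 peaks in the 7 lists of the series. RWPE1 is a line from normal prostate. Both populations stably expressed their form of ERG and were grown in keratinocyte serum-free medium with bovine pituitary extract, human recombinant epidermal growth factor and the selection agents puromycin and hygromycin. The labels do not name the promoter that drove ERG or say whether either population was 1 clone, and no list of RWPE1 cells without ERG was analysed here. The other lists used beside them were ERG (antibody clone 9FY) in the same cells, with 2 replicates for wild-type ERG, and ERG and EWS in the prostate cancer line VCaP. Each EWS condition had 1 list, so no difference between conditions has a replicate check and no test between them is given.

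ERG is a transcription factor of the ETS family, whose members bind DNA through a conserved ETS domain at sites with a GGAA core. It is rarely expressed in normal prostate epithelium and is placed under androgen control by gene fusion in many prostate tumours. EWS, the product of EWSR1, is an RNA-binding protein of the FET family with a low-complexity domain that can activate transcription. EWS does not recognise a DNA sequence of its own in the way ERG does, and its ChIP signal is usually taken to reflect contact through other proteins or RNA. The study's title names an interaction of EWS with the ETS factors rearranged in prostate cancer. Setting EWS with wild-type ERG beside EWS with the point mutant asks where EWS was found when the form of ERG changed.

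The 2 EWS lists differed in length, in place and in width, and they rarely named the same site. The wild-type list was 3.19 times as long as the P436A list (3.03 to 3.37, exact 95% interval for counting error only), a difference of 3917 peaks. It was the longer list on every autosome but chromosome 22, which had 2 peaks with wild-type ERG and 4 with P436A. Peaks touched 1748 megabase bins (windows of 1 Mb along each chromosome) with wild-type ERG and 932 with P436A. Within its own list, a peak had its next neighbour at a median of 66.2 kb with wild-type ERG and 213 kb with P436A. Read depth is unknown for both lists, so the number of peaks cannot be read as an amount of bound EWS.

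Widths followed different forms in the 2 lists. With P436A, peaks ran from 346 to 501 bp around a median of 491 bp, and none exceeded 501 bp. With wild-type ERG the median was 500 bp, but 2586 peaks (45.3%) were wider than 501 bp and the widest reached 7061 bp. The wild-type ERG lists also held wide peaks (71.3% of replicate 1 and 49.4% of replicate 2 exceeded 501 bp), whereas the lists of ERG P436A and of VCaP EWS had none over 501 bp. Wild-type EWS peaks covered 3220434 bp in all and P436A EWS peaks 866246 bp. Whether the lists were called with the same settings was not tested.

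Sites were called shared where peaks of both EWS lists overlapped by 1 bp or more. There were 80 such regions, each formed by 1 peak from either list. They made up 1.4% of the wild-type list and 4.48% of the P436A list (exact 95% binomial intervals 1.11% to 1.74% and 3.57% to 5.54%). That left 5623 peaks found with wild-type ERG only and 1706 found with P436A only. For scale, the 2 wild-type ERG replicates, which differ in neither antibody nor ERG form, overlapped at 6.05% of replicate 1 and 5.94% of replicate 2. Lists of 1 group and 1 antibody thus also differed at most sites. The share of the P436A list fell to 1.46% when the wild-type list was shortened to its first 1786 peaks, and to 1.45% (0.487% of the wild-type list) outside bins with 10 or more EWS peaks.

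Where the EWS lists did coincide, the peaks lay close on each other. The centres of shared peaks were a median of 127 bp apart, 38 of 80 pairs were within 100 bp and 63 were within 250 bp. The median overlap was 421 bp, or 88.4% of the P436A peak. Of all P436A peaks, 38 had a wild-type centre within 100 bp, 16 at 100 to 200 bp, 13 at 200 to 300 bp, 6 at 300 to 400 bp and 1 at 400 to 500 bp. Beyond that, 10 lay at 500 to 750 bp and 10 at 750 to 1000 bp. The closest pairs included chromosome 5, 84506128 to 84506628, with centres 1 bp apart, and chromosome 1, 195938228 to 195938697, with centres 2 bp apart, both picked after their values were seen.

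**Figure D1:**
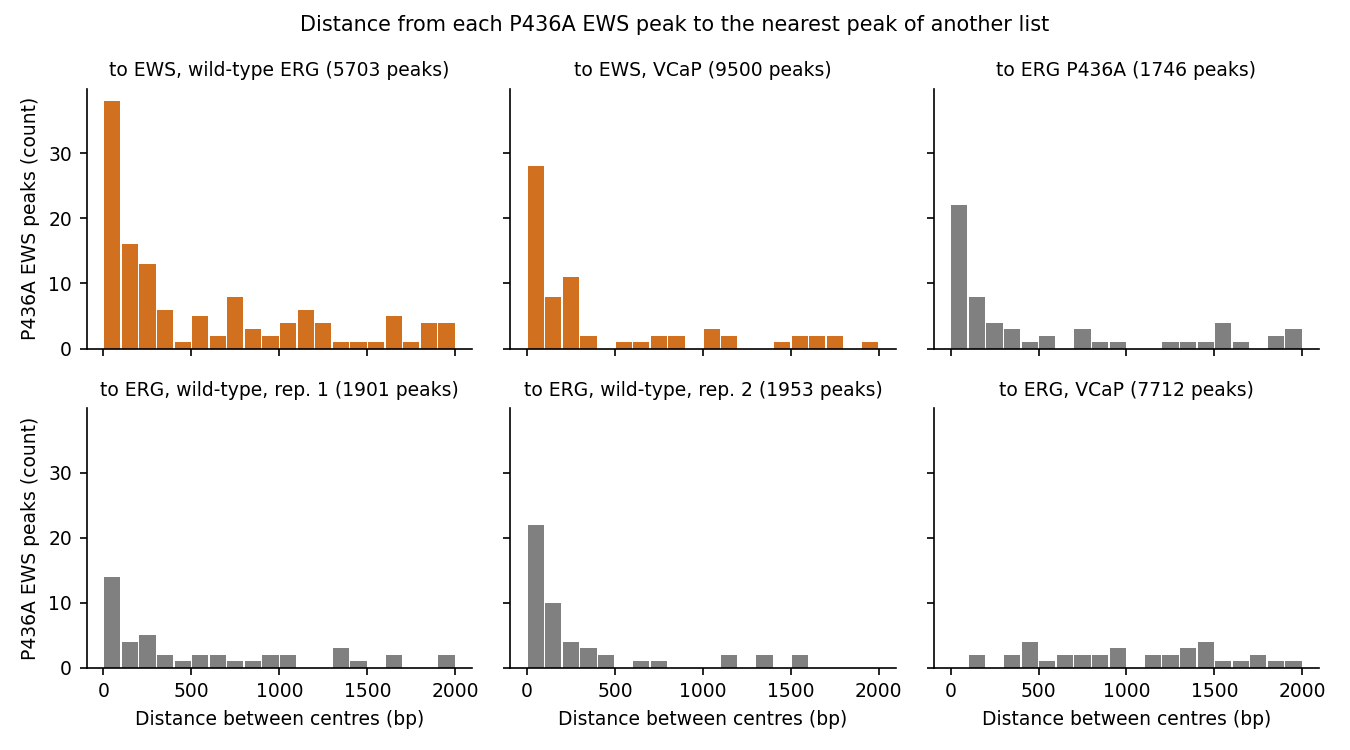
Distance in bp from the centre of each P436A EWS peak to the nearest centre in each other list (bars: number of P436A EWS peaks per 100 bp; orange, EWS lists; grey, ERG lists; the number of peaks in the other list is above each panel). The first bar holds 38 peaks for the wild-type EWS list, 28 for VCaP EWS, 22 for ERG P436A, 14 and 22 for wild-type ERG replicates 1 and 2, and 0 for VCaP ERG.

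The same gathering at short distance was seen towards lists of another antibody or cell line, so it was not limited to the EWS pair. Within 100 bp, the P436A EWS peaks had 28 VCaP EWS centres, 22 ERG P436A centres, 22 of wild-type ERG replicate 2 and 14 of replicate 1. VCaP ERG, with 7712 peaks, had none, although 12 P436A EWS peaks overlapped one. Peaks of VCaP ERG had a median width of 719 bp. Those of replicate 1 had a median of 608 bp, and 27 P436A EWS peaks overlapped one. Whether peak width bears on the distance between centres was not tested. As a share of the partner list, P436A EWS peaks were found at 1.4% of wild-type EWS peaks, 2.18% of ERG P436A peaks and 2.15% of replicate 2 peaks (1.54% to 2.98% and 1.55% to 2.90%). They were found at 1.42% of replicate 1 peaks (0.938% to 2.06%), 0.516% of VCaP EWS peaks (0.382% to 0.681%) and 0.156% of VCaP ERG peaks (0.0804% to 0.272%). These shares were not tested against each other, as the lists differ in length and crowding.

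Most P436A EWS peaks that missed the wild-type list were not near misses. Over all 1786 P436A peaks, the 80 shared ones included, a wild-type EWS centre lay within 1 kb of 94 (5.26%). Most of these 94 were shared peaks, as 63 of the 80 shared pairs had centres within 250 bp. Such a centre lay within 10 kb of 302 P436A peaks (16.9%) and within 100 kb of 979 (54.8%). That left 807 (45.2%) farther than 100 kb from any. The median distance was 76.1 kb. With the wild-type list shortened to equal length, 6.44% had a wild-type centre within 10 kb. From the other side, 95 wild-type EWS peaks (1.67%) had a P436A centre within 1 kb and 1907 (33.4%) within 100 kb, with a median of 228 kb. At the megabase scale, 85.1% of P436A peaks and 64.5% of wild-type peaks lay in the 722 bins that held peaks of both. Of the 1958 bins with a peak of either list, however, wild-type peaks lay in 1748 and P436A peaks in 932. Whether the lists met in more bins than these numbers alone would give was not tested.

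Chromosome 1 gave the largest part of the difference in list length. It held 1206 wild-type peaks, 21.1% of the list (20.1% to 22.2%), and 258 P436A peaks, 14.4% of the list (12.8% to 16.2%). The difference of 948 peaks on this chromosome was 24.2% of the whole. Chromosome 5 followed with 935 and 330 peaks, or 15.4% of the whole difference, although its share of the list was lower with wild-type ERG (16.4%) than with P436A (18.5%). Chromosome 20 moved the other way from chromosome 1, with 8.03% of the wild-type list (458 peaks; 7.34% to 8.77%) and 13.2% of the P436A list (235 peaks; 11.6% to 14.8%). Chromosome 9 did likewise, with 7.35% (419 peaks) and 11.1% (198 peaks).

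Other chromosomes differed by fewer percentage points of the list, although some had ratios farther from that of the lists. Chromosomes 2, 8, 11 and 13 had larger shares with wild-type ERG, with ratios of wild-type to P436A counts of 4.71 (3.65 to 6.15), 4.51 (3.46 to 5.96), 4.92 (3.42 to 7.25) and 6.30 (4.04 to 10.3). Chromosome 10 had a larger share with P436A, at a ratio of 2.17 (1.65 to 2.88), and chromosome 19 stood at 1.53 (0.974 to 2.43). Without chromosome 1 the ratio over the genome was 2.94 (2.78 to 3.12), and without chromosomes 1, 5, 9 and 20 together it was 3.51 (3.24 to 3.81). The excess of wild-type peaks was therefore spread over the genome, with blocks above and below the ratio of the list lengths.

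**Figure D2:**
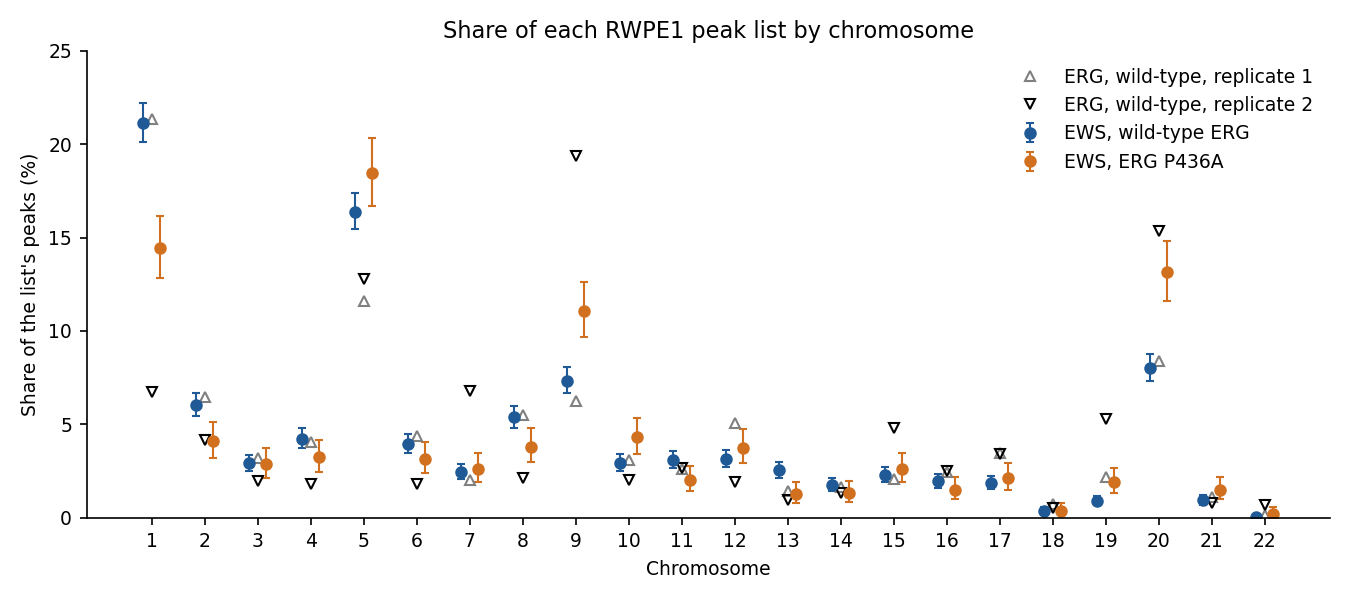
Share of each RWPE1 list (%) by autosome for EWS with wild-type ERG (blue) and with P436A (orange), with exact 95% binomial intervals, and for the 2 wild-type ERG replicates (open triangles, no interval drawn). On chromosome 1 wild-type EWS (21.1%) sits beside ERG replicate 1 (21.4%), and on chromosomes 9 and 20 P436A EWS and ERG replicate 2 lie above the other 2 lists.

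The 2 replicates of wild-type ERG, the only replicated group with peak lists, differed along the same chromosomes. Chromosome 1 held 21.4% of replicate 1 and 6.76% of replicate 2, a difference of 14.6 percentage points, against 6.70 points between the EWS lists. Chromosome 9 held 6.26% and 19.4%, a difference of -13.1 points against -3.74, and chromosome 20 held 8.42% and 15.4%, a difference of -6.94 against -5.13. On 8 of 22 autosomes the EWS lists differed by more than these replicates did, chromosome 5 among them (-2.08 points against -1.18). On 15 of 22 the wild-type minus P436A difference in EWS had the sign of replicate 1 minus replicate 2. The shift in chromosome shares between the ERG forms was thus no larger, for chromosomes 1, 9 and 20, than that between 2 lists of 1 ERG form made with the other antibody. The ERG P436A list, which has no replicate, held 15.2%, 12.0% and 16.3% on chromosomes 1, 9 and 20. P436A EWS held 14.4%, 11.1% and 13.2% there. With the wild-type list shortened to equal length the EWS differences were 12.8 points on chromosome 1, -6.33 on chromosome 5, -5.43 on chromosome 9 and -8.29 on chromosome 20, the last then exceeding the replicates. What moved both pairs of lists was not tested.

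Within chromosome 1 the excess lay in blocks on its distal part. From 0 to 180 Mb the 2 lists held 186 and 80 peaks, a ratio of 2.33 (1.78 to 3.06), below that of the lists as a whole. From 180 to 230 Mb they held 997 and 171, a ratio of 5.83 (4.95 to 6.90), and this stretch alone made up 21.1% of the difference in list length. Its densest block, 195 to 200 Mb, held 422 wild-type and 60 P436A peaks, a ratio of 7.03 (5.36 to 9.38) and 9.24% of the whole difference. Counts per megabase there were 84.4 and 12.0. The 195 to 200 Mb block is a run of neighbouring bins among the 10 with the largest wild-type excess; the borders of longer stretches, here and below, were drawn after the counts were seen.

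Single megabase bins showed how uneven the block was. The bin at 197 Mb held 102 wild-type and 10 P436A peaks, the bin at 198 Mb held 91 and 7, and the bin at 195 Mb held 86 and 6. In contrast, the bin at 199 Mb held 75 and 23, close to the ratio of the list lengths. The bin at 196 Mb, with 68 and 14, stood in between. Before this block, 188 to 190 Mb held 81 wild-type and 4 P436A peaks, a ratio of 20.3 (7.61 to 76.1). After it, between 200 and 210 Mb, the counts were 183 and 55, a ratio of 3.33 (2.45 to 4.58) whose interval holds that of the lists. The bins at 221 Mb (41 and 5 peaks) and 227 Mb (41 and 6) again had few P436A peaks.

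The chromosome 1 block from 195 to 200 Mb was also where the EWS lists met most often. It held 20 of the 80 shared regions (25%). Of the 60 P436A peaks in the block, 20 (33.3%; 21.7% to 46.7%) overlapped a wild-type peak, whereas 60 of 1726 did elsewhere (3.48%; 2.66% to 4.45%). Wild-type EWS peaks covered 5.66% of the bases of this block. The median distance from a P436A peak to the nearest wild-type centre was 2.45 kb inside the block and 82.4 kb outside it. Of the block's P436A peaks, 17 lay within 250 bp of a wild-type centre, 2 at 250 to 500 bp, 2 at 500 to 1000 bp and 6 at 1000 to 2000 bp. In the same block ERG replicate 1 had 144 peaks, replicate 2 had 5, ERG P436A had 45 and each VCaP list had 0.

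On chromosome 15 the bin at 26 Mb, the only one of the 10 bins with the largest wild-type excess that lay off chromosome 1, held 38 wild-type and 5 P436A peaks. None of its peaks was shared. Together these 10 bins accounted for 543 peaks, 13.9% of the difference, and 172 bins were needed to reach 50% of it. Wild-type peaks were more numerous in 1474 of 1958 bins, P436A peaks in 289, and 195 bins had equal numbers.

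On chromosomes 5, 9 and 20 both lists were denser in the same long stretches. Chromosome 5 held 892 wild-type and 307 P436A peaks from 50 to 180 Mb, against 40 and 22 from 0 to 50 Mb. That is 6.86 and 2.36 peaks per Mb in the longer stretch and 0.800 and 0.440 in the shorter one. Chromosome 20 held 433 and 209 peaks from 29 to 63 Mb, a ratio of 2.07 (1.75 to 2.46), and 25 and 26 from 0 to 29 Mb. P436A held a larger part of chromosome 20 on either side of 29 Mb than the list ratio gives.

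Chromosome 9 split within its dense stretch. From 70 to 130 Mb it held 353 wild-type and 132 P436A peaks, a ratio of 2.67 (2.18 to 3.29). From 130 to 140 Mb it held 24 wild-type and 45 P436A peaks, a ratio of 0.533 (0.311 to 0.894). Of the 40 windows of 10 Mb with at least 30 EWS peaks, this was the only one with more P436A than wild-type peaks. ERG replicate 2 had 122 peaks in the window, ERG P436A had 72 and ERG replicate 1 had 13. The megabase bins with the largest excess of P436A share of list were at chromosome 20, 31 to 32 Mb (17 wild-type and 16 P436A peaks) and 32 to 33 Mb (17 and 14), chromosome 9, 135 to 136 Mb (2 and 8), and chromosome 20, 53 to 54 Mb (9 and 10) and 45 to 46 Mb (10 and 9).

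**Figure D3:**
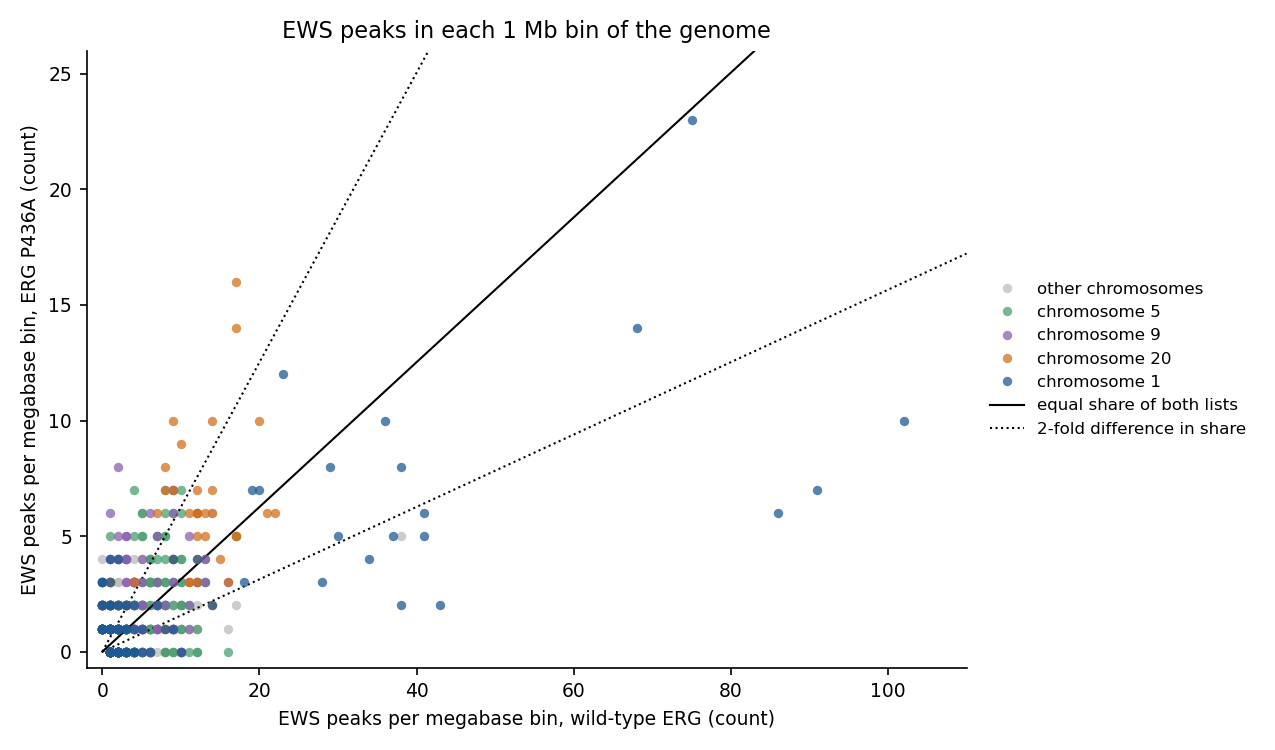
EWS peaks per 1 Mb bin with wild-type ERG (x axis, count) and with P436A (y axis, count), 1 point per bin, coloured by chromosome. The solid line marks an equal share of both lists and the dotted lines a 2-fold difference in share; the chromosome 1 bins with 86, 91 and 102 wild-type peaks lie far below the lower dotted line, and the chromosome 20 bins with 16 and 14 P436A peaks lie above the upper one.

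Among 163 bins with at least 10 EWS peaks, the share of list was over 2 times higher with wild-type ERG in 44 (27%) and over 2 times higher with P436A in 29 (17.8%). With at least 5 peaks, the order turned, at 82 and 87 of 352 bins. The first kind was found on chromosome 1 in 13 of 25 such bins, on chromosome 5 in 12 of 60, on chromosome 9 in 7 of 22, on chromosome 8 in 6 of 14 and on chromosome 20 in 1 of 32. The second kind was found on chromosome 5 in 15 of 60, on chromosome 20 in 9 of 32, on chromosome 9 in 5 of 22 and on chromosome 1 in 0 of 25. Chromosome 5 had bins of both kinds and chromosome 1 of the first kind only. The chromosome 5 bins past the fold often held few peaks, such as 9 and 1 at 66 Mb or 6 and 4 at 61 Mb. How many bins would pass the fold by counting error alone was not tested. By the same rule, 61 bins with at least 10 wild-type ERG peaks had 16 (26.2%) with a higher share in replicate 1 and 29 (47.5%) with a higher share in replicate 2. Bins past the fold made up 44.8% of those with EWS and 73.8% of those between the ERG replicates, which hold fewer peaks. With lists of equal length 11 and 7 EWS bins passed the fold, in fewer bins with enough peaks.

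Bins with EWS in 1 list only were mostly bins of 1 or 2 peaks. Of 1026 bins with wild-type peaks alone, 800 held 1 or 2, and of 210 with P436A peaks alone, 199 did. The fullest bin without a P436A peak was at chromosome 5, 86 to 87 Mb, with 16 wild-type peaks, followed by chromosome 5 at 109 and 121 Mb with 12 each. The fullest bin without a wild-type peak was at chromosome 22, 29 to 30 Mb, with 4.

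That chromosome 22 cluster stood near the head of the P436A EWS list. Its 4 peaks were listed at positions 2, 3, 4 and 6, at chromosome 22, 29682824 to 29683263, 29678143 to 29678640, 29673879 to 29674337 and 29669666 to 29670166. They were the only P436A EWS peaks on the chromosome, with centres 4.19, 4.28 and 4.65 kb apart. None had a wild-type EWS peak, and replicate 1 of wild-type ERG had no peak in this megabase either. Replicate 2 of wild-type ERG, however, listed a peak at each of the 4, between 1118 and 1316 bp wide, and ERG P436A and VCaP EWS each listed a peak at 3. At 29682824 to 29683263 and at 29673879 to 29674337 the VCaP EWS and P436A EWS peaks had identical starts and ends. These were the only peaks with identical coordinates between the P436A EWS list and any other. The cluster therefore recurred with both antibodies, both ERG forms and both cell lines, and was missing from the wild-type EWS list, ERG replicate 1 and VCaP ERG. In VCaP it was seen with the EWS antibody only.

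The first P436A EWS peak of all, at chromosome 2, 33141238 to 33141735, was also in the VCaP EWS list. The fifth, at chromosome 1, 166246355 to 166246852, was in those of ERG replicate 2, ERG P436A and VCaP EWS. Among the first 10 listed with P436A, 6 overlapped VCaP EWS, 5 a peak of ERG replicate 2, 5 of ERG P436A, 1 of ERG replicate 1 and 2 of wild-type EWS.

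The head of the wild-type EWS list was made up of other sites. It was led by chromosome 2, 89874544 to 89875919, chromosome 9, 44070301 to 44071231, chromosome 2, 133025810 to 133031370, chromosome 2, 133011745 to 133013723, and chromosome 2, 89852639 to 89853870, none of them shared with P436A EWS. All of the first 10 listed peaks overlapped a peak of ERG replicate 1, and none overlapped one of ERG replicate 2, ERG P436A, P436A EWS or VCaP EWS. VCaP ERG had a peak at 2 of the 10. In the first 100, 41 had a peak of replicate 1 (41.0%; 31.3% to 51.3%) and 2 had one of replicate 2 (2.00%; 0.243% to 7.04%). The first 10 wild-type EWS sites were thus found in 1 of the 2 lists of wild-type ERG. Whether they lie in repeated or duplicated sequence was not tested. The order of the peaks is as deposited, and no source used here says that it ranks them.

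Along the wild-type EWS list, divided into 4 parts of equal length, the share with a replicate 1 peak was 6.80% (5.55% to 8.24%) in the first part and 1.89%, 1.33% and 2.11% in the others. The share with a P436A EWS peak was 1.68% (24 peaks), 0.631% (9), 0.912% (13) and 2.39% (34; 1.66% to 3.32%). Along the P436A EWS list, the share with a wild-type EWS peak was 5.59% (25 peaks), 3.36% (15), 3.59% (16) and 5.38% (24), with intervals that overlapped. Shared regions were therefore not gathered at the head of either list. Chromosome 1 fell from 28.1% of the first part of the wild-type list to 15.6% of the last, and chromosome 20 went from 6.03% to 14.2%. With P436A, chromosome 1 went from 17.9% to 11.7% and chromosome 20 from 11.2% to 17.5%.

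**Figure D4:**
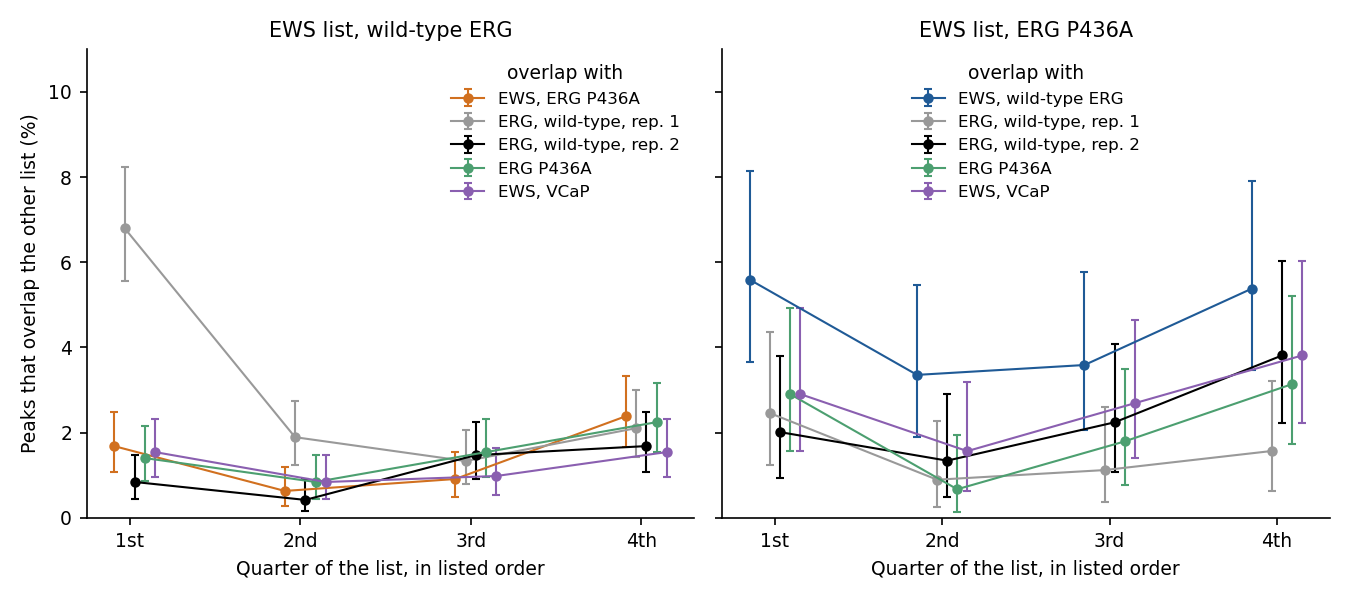
Share (%) of EWS peaks that overlapped a peak of each other list, in 4 equal parts of the deposited order, for the wild-type list (left) and the P436A list (right); error bars are exact 95% binomial intervals for counting error only. The first part of the wild-type list stands out for ERG replicate 1 (6.80%), while overlap with the other EWS list is found at both ends of either list.

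Of the 80 shared regions, 59 had no peak in any of the other 5 lists, 13 had one in 1 list, 5 in 2, 1 in 3 and 2 in 4. Chromosome 1 held 27 of them, chromosome 20 held 17, chromosome 5 held 15 and chromosome 9 held 8. Shared wild-type peaks had a median width of 528 bp against 500 bp for the others. Wild-type peaks over 501 bp were shared in 48 of 2586 cases (1.86%, interval 1.37% to 2.45%). Those up to 501 bp were shared in 32 of 3117 (1.03%, interval 0.703% to 1.45%). A wider peak has more bases in which to overlap, and whether that set these shares apart was not tested. With every peak set to 500 bp, 74 wild-type peaks were shared. The 10 first listed shared regions were 5 on chromosome 1, 3 on chromosome 20, 1 on chromosome 9 and 1 on chromosome 21. Those on chromosome 1, none with a peak in another list, were at 227563862 to 227564881, 196424103 to 196424951, 198334524 to 198334994, 225675255 to 225676303 and 196097995 to 196098906.

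Shared EWS regions at a peak of wild-type ERG numbered 16 (20%; 11.9% to 30.4%), against 206 of the 5623 wild-type EWS peaks that were not shared (3.66%; 3.19% to 4.19%). Of the 16, 12 had a replicate 1 peak, 7 had a replicate 2 peak and 3 had both, so the share was 8.75% without replicate 1 and 15% without replicate 2. Both replicates had a peak at 79186196 to 79187281 on chromosome 9, at 41399586 to 41401429 on chromosome 17 and at 9825341 to 9828155 on chromosome 21. Of those with a peak of replicate 1 but not of replicate 2, some were neighbours. On chromosome 9 they included 68413419 to 68420479, the widest wild-type EWS peak, and 68430531 to 68431572. Both also overlapped VCaP EWS, and the widest overlapped ERG P436A as well. On chromosome 20 they included 29584571 to 29585439 and 29588267 to 29589896, the latter also at an ERG P436A peak. Shared EWS regions at an ERG P436A peak numbered 6 of 80 in the P436A list (7.50%; 2.80% to 15.6%), against 32 of 1706 that were not shared (1.88%; 1.29% to 2.64%). Chromosome 20 held 3 of them, at 62542344 to 62542837, 29588455 to 29588944 and 33224901 to 33225383. The others were 9825635 to 9826135 on chromosome 21, 74240688 to 74241152 on chromosome 10 and 144014114 to 144014614 on chromosome 1.

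A like step was found for a list of another cell line. VCaP EWS peaks lay at 6 of 80 shared wild-type EWS peaks (7.50%; 2.80% to 15.6%) and at 64 of 5623 not shared (1.14%; 0.878% to 1.45%). On the P436A side the step was 7.50% against 43 of 1706 (2.52%; 1.83% to 3.38%), with intervals that overlapped. VCaP ERG lay at 1 of 80 shared wild-type peaks (1.25%; 0.0316% to 6.77%) and 29 of 5623 not shared (0.516%), and at 0 of 80 shared P436A peaks (up to 4.51%) and 12 of 1706 not shared (0.703%). For ERG replicate 2 on the P436A side, 6 of 80 (7.50%; 2.80% to 15.6%) stood against 36 of 1706 (2.11%; 1.48% to 2.91%), again with overlapping intervals. The counting intervals did not overlap for replicate 1 and ERG P436A on both sides, for replicate 2 and VCaP EWS on the wild-type side only, and for VCaP ERG on neither. For ERG P436A on the P436A side the gap was narrow, 2.80% against 2.64%, and rested on 6 shared peaks. These intervals treat peaks as independent, but 20 of the 80 shared regions lay in 1 block of chromosome 1, so they are not a test. Whether the shared regions recur in any ChIP, or lie in repeated or duplicated sequence, was not tested.

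Few sites of ERG had EWS in both cell populations. Of the 1901 peaks of wild-type ERG replicate 1, 164 had EWS with wild-type ERG only, 15 had EWS with P436A only and 12 had both. Of the 1953 peaks of replicate 2, 57 had EWS with wild-type ERG only, 36 with P436A only and 6 with both. Of the 1746 ERG P436A peaks, 82 had EWS with wild-type ERG only, 34 with P436A only and 4 with both. In each of these ERG lists the sites with EWS in both cell populations were the smallest class. With 1 list per EWS condition, and 6.05% and 5.94% overlap between the ERG replicates, this small class cannot be read as a move of EWS. In all, replicate 1 had 176 sites with wild-type EWS and 27 with P436A EWS, replicate 2 had 63 and 42, and ERG P436A had 86 and 38. The wild-type EWS list is 3.19 times as long, so as a share of each EWS list these went different ways. Replicate 1 peaks lay at 3.03% of the wild-type and 1.51% of the P436A list, replicate 2 peaks at 1.10% and 2.35%, and ERG P436A peaks at 1.51% and 2.13%.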

How the data were processed

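The data were ChIP-seq peak lists, 1 per sample, for 7 of 10 samples; the 3 inputs were not analysed here. The lists have no header line, and the deposited values are positions in base pairs, with no height, score or p-value. Reads were aligned with Bowtie2 (version given as 0.12.8) to hg19, per the submitters' processing notes. Depth is unknown, and which caller, cutoff and control made the peaks is not given in the sources used. Starts were read as 0-based and are printed 1-based.

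Groups came from the sample titles. The labels do not say whether the ERG replicates were separate cultures. Overlap of at least 1 bp counted as shared, and bins and blocks were assigned by peak centre. Shares carry exact (Clopper-Pearson) 95% intervals, and ratios of counts carry exact conditional binomial intervals. Both cover counting error only, and peaks are not replicates. Named regions were the first 10 shared, the first 5 listed of either list that were not shared, shared regions at an ERG peak of either form, and the bins with the largest excess (10 for wild-type, 5 for P436A). Further regions were picked with their values known. The regions, lists and measures were chosen with earlier results of these data known. The gene and promoter tables at hand are of a later assembly, so no genes were assigned, no gene lists counted and no sequences printed. The overlap, distance and bin counts were tested on simulated lists with known answers. Alternatives are given in the closing section. Python 3.11.15, NumPy 2.4.6, SciPy 1.17.1 and matplotlib 3.10.9 were used.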

Additional observations from a re-analysis of the deposited data

How the results depend on the processing

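No paired analysis was possible because each EWS group had 1 list, and no EWS list could be left out. The overlap kept its size (within its interval) with centres within 500 bp, with peaks set to 500 bp and on chromosomes 1 to 22 and X. With a reciprocal overlap of 0.5 it was 1.03% of the wild-type and 3.30% of the P436A list, and outside crowded bins (under 10 peaks) 0.487% and 1.45%. With lists of equal length 1.46% of P436A peaks were shared, since fewer wild-type peaks remained. Leaving out chromosome 1, or only its part from 195 to 200 Mb, both chosen after seeing the data, gave 3.47% and 3.48% of the P436A list. With equal lengths, 1.74% of P436A peaks had a wild-type centre within 1 kb, 6.44% within 10 kb and 23.5% within 100 kb, and without chromosome 1 these were 4.12%, 12.8% and 51.5%. With equal lengths the differences on chromosomes 1, 2, 5, 9 and 20 were 12.8, 3.25, -6.33, -5.43 and -8.29 points, all wider. Chromosome 8 narrowed from 1.58 to 1.29, chromosomes 10, 13, 14, 16, 18 and 21 also narrowed, and chromosome 12 turned from -0.61 to 0.34. The shortened wild-type list holds the first peaks in deposited order, along which the chromosome shares changed. In bins of 5 Mb, 49 held 50% of the difference in length; with equal lengths there is no difference to divide. Bins past the fold towards wild-type and towards P436A numbered 11 and 7 with equal lengths, 82 and 87 (of 352) with at least 5 peaks, 11 and 3 (of 33) with at least 20, and 25 and 10 with a fold of 3. The share of shared regions with wild-type ERG was 11.9% with a reciprocal overlap of 0.5, and leaving out each ERG replicate gave 8.75% to 15%. Depth is unknown, and no list of the EWS groups has a replicate.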
